A study of Mus musculus with 12 samples.

Results

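A group of 7 transcripts that mark mouse embryonic stem cells (mESCs) were followed through differentiation with retinoic acid, in a control line and in a line depleted of cathepsin L. They are Dppa2, Dppa4, Dppa3, Utf1, Dppa5a, L1td1 and Tdh, chosen by gene symbol, and make up 7 of the 24495 genes in the count table. All 7 passed the filter on low counts, as did 15532 genes in all. The cells were CCE-Nanog-GFP mESCs, a reporter line whose GFP-positive cells were sorted before the experiments, grown on gelatin with LIF. In the labels the control is WT in genotype and scr in title, taken here as the scramble shRNA line shSC, and the other line, shCTSL, is labelled CTSL KD. The shRNA against Ctsl was delivered in the lentiviral vector pLKO.1, and the vector of the scramble was not given in the sources used here. Both lines carry the reporter and were sampled before differentiation (Day 0) and on 2 later days, when embryoid bodies had spent 2 or 4 days in retinoic acid without LIF (Day 2, Day 4). RNA-seq was made from 2 replicates in each of these 6 groups, 12 libraries in all. The study used more than one shRNA against Ctsl, and the labels do not say which one was sequenced, so shCTSL is a single knockdown line here, made of a selected population.

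The 7 genes are among those whose transcripts are most restricted to the early embryo, germ cells and pluripotent cells, and they do different work. Dppa2 and Dppa4 encode SAP-domain proteins that bind chromatin as a pair and act upstream of genes of the 2-cell embryo, Dppa3 (Stella) protects DNA methylation states in the egg and zygote, and Utf1 encodes a chromatin-bound factor found at genes with bivalent histone marks. Dppa5a (Esg1) and L1td1 encode RNA-binding proteins. The former has a KH domain, and the latter is derived from the first open reading frame of a LINE-1 element. Tdh encodes the mitochondrial enzyme that begins the breakdown of threonine to glycine and acetyl-CoA, on which mouse ES cells depend.

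In the mm9 genome Dppa4 (chr16:48283848-48294405) and Dppa2 (chr16:48310590-48319836) lie on the plus strand, 16.2 kb apart. Dppa3 (chr6:122576428-122580290) lies 16.3 kb from Gdf3 and 77.2 kb from Nanog. Utf1 is at chr7:147129688-147131011, Dppa5a at chr9:78214859-78215984, 7.93 kb from Ooep, another gene with a KH domain, L1td1 at chr4:98393425-98405171 and Tdh at chr14:64111184-64127929. The counts are of reads in their exons. The promoters of Utf1 and L1td1, 2 of the 7 members and among those that fell fastest, were found in the RefSeq promoter sequences of GRCm38.p6, and the 250 bases before each start are shown on the coding strand (Utf1 chr7:139943606-139943855, L1td1 chr4:98726504-98726753). Capitals mark each GC box, the letters GGGCGG on either strand, and neighbouring boxes may overlap.
Utf1: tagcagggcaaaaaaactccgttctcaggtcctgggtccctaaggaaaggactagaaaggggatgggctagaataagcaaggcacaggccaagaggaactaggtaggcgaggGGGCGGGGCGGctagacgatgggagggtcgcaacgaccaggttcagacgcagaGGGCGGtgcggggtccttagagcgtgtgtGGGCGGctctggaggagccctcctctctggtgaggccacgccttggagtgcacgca
L1td1: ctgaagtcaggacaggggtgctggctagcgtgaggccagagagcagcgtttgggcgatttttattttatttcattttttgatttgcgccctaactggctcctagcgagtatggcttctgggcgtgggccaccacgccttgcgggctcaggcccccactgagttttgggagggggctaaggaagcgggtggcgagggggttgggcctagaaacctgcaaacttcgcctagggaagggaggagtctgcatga
Both windows are rich in G and C, with 61.6% in Utf1 and 57.6% in L1td1 against a median of 52.4% over 32851 promoters. They hold 14 and 11 CpG dinucleotides, where the median promoter holds 6. Utf1 has 4 GC boxes and L1td1 has none, and 32.7% of all promoters hold at least 1. The octamer ATGCAAAT (in 1.6% of promoters), the SOX core CATTGT (10.7%), TATAAA (12.4%) and the E-box CACGTG (6.02%) were searched on both strands and were found in neither window.

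The libraries held 11171111 to 27155553 counts. Between replicates the spread was several times that of counting alone, with a chi-square per degree of freedom of 2.73 to 10.3 in 5 groups and 135 in shCTSL Day 2. One library of that group, replicate 1, also had the largest share of the ribosomal gene Rn45s, at 3.43% of its counts against 0.170 to 1.43% in the other libraries. Among the 7 genes, Dppa5a and Dppa3 differed by over 2-fold between the pair of shCTSL Day 2 libraries, and their values there are given with and without each. Ctsl, the target of the shRNA, stood at 137 and 147 normalized CPM (counts scaled to a common library size with TMM factors) in shSC at Day 0 and at 39.2 and 37.5 in shCTSL. The log2 difference, shCTSL minus shSC, was −1.89 at Day 0 (adjusted p = 0.00246, SE 0.15), −1.06 at Day 2 (adjusted p = 0.0342, SE 0.14) and −0.83 at Day 4 (adjusted p = 0.0896, SE 0.14), so the depletion was called at Day 0 and Day 2 only, although its direction was the same in each alternative run. The Day 2 call was lost with the compared libraries fitted alone (adjusted p = 0.708), with limma-voom (0.428), with the replicate number as a block (0.0631), at a log2 cutoff of 1.5 and without shSC Day 2 replicate 1 (0.290) or 2 (0.474). The Day 0 call was lost without shCTSL Day 0 replicate 1 (log2 difference −1.93) or 2 (−1.86). Day 4 was called as well with DESeq2 (adjusted p = 3.1e-05), without the filter (0.00477), with the compared libraries fitted alone (0.000878) and with limma-voom (0.000193). It was also called with both shCTSL Day 2 libraries left out (adjusted p = 1.88e-05). Adjusted p-values are from the quasi-likelihood test of edgeR unless DESeq2 or limma-voom is named, over the 15532 genes in the fit reported. A call needs both a change of 1.5-fold or more and an adjusted p below 0.05.

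The identity of the cells was checked on marker transcripts. The pluripotency factors Pou5f1, Nanog, Sox2, Zfp42, Esrrb, Klf4 and Tfcp2l1 summed to 5226 to 5750 normalized CPM in the 4 Day 0 libraries and to 284 to 362 at Day 4, and none was at 0 in any group. Endoderm markers summed to 5.26 to 6.42 at Day 0, with Afp at 0 in both shSC libraries, and to 307 to 360 at Day 4. The sum of 5 fibroblast markers went from 8.11 to 11.8 at Day 0 to 108 to 140 at Day 4. That of 4 mesoderm markers went from 3.37 to 4.72 to 95.1 to 118. The sum of 4 neural markers fell, from 214 to 245 at Day 0 to 126 to 154 at Day 4. Single markers could differ from their sum. Thy1, a fibroblast marker, was called lower in shSC at Day 4, and of 3 mesoderm genes tested 2 were called higher. These changes in makeup move with the falls described next, and in bulk samples fewer cells of a type and less RNA per cell cannot be told apart.

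In all, 6 of the 7 transcripts fell in both lines, at different speeds, and Dppa3 was not called. Tdh lost most of its transcript by Day 2 and then rose about 2-fold by Day 4. Utf1 and L1td1 fell steeply in the first 2 days and went on falling, while Dppa2, Dppa4 and Dppa5a lost a smaller part of their transcript by Day 2 and fell further by Day 4. In shSC, 6 of 7 were called lower at Day 2 against Day 0, where 25.3% of all genes tested were, and 6 of 7 at Day 4 against Day 0, against 28.7%. In shCTSL the counts were also 6 and 6, against 24.6% and 27.6%. From Day 2 to Day 4, 5 of 7 fell further in each line (12.4% of all genes in shSC and 12.4% in shCTSL), and 1 of 7, Tdh, rose (11.4% and 11.0%). The median log2 change of the 7 genes from Day 0 to Day 4 was −3.32 in shSC and −2.98 in shCTSL, beside 0.03 and 0.06 over all genes tested. Together the 7 genes took 0.286 to 0.308% of the counts of a Day 0 library and 0.019 to 0.028% at Day 4.

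**Figure D1:**
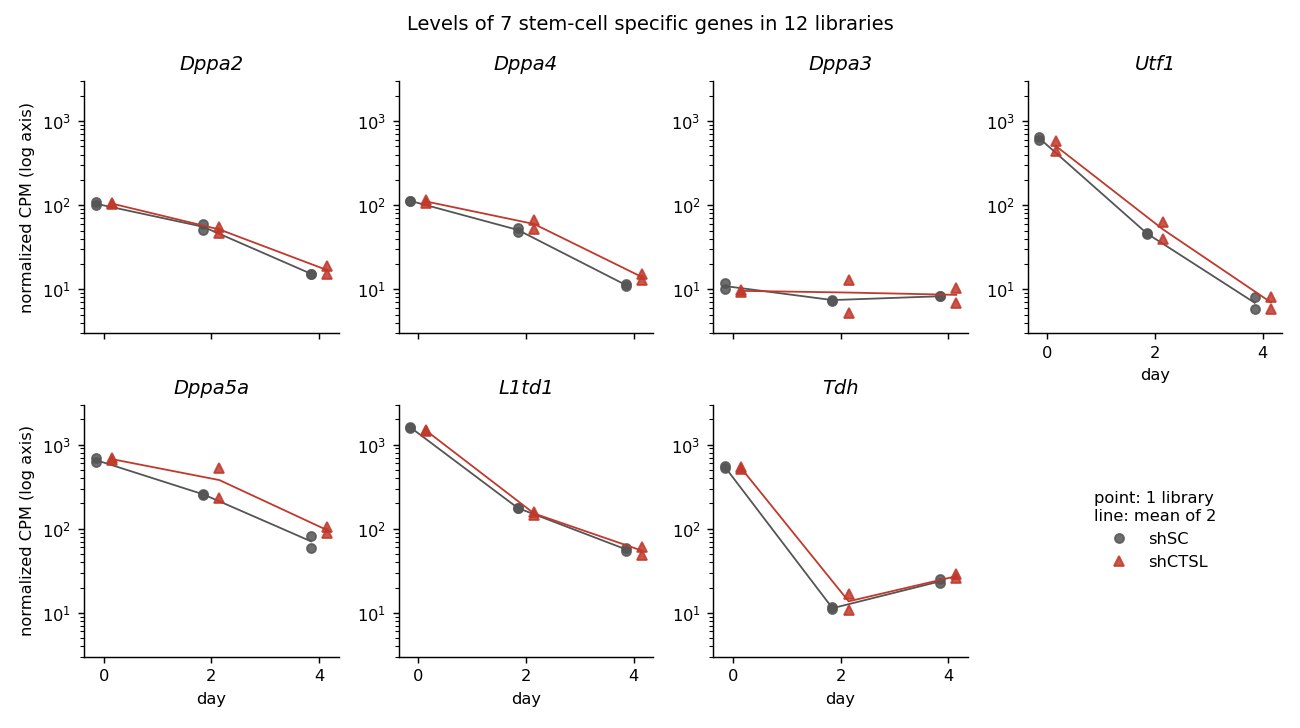
Normalized CPM on a log axis against day for each gene. Points are libraries, circles for shSC and triangles for shCTSL, and lines join the means of 2. A total of 6 genes end far below their Day 0 level in both lines, Tdh is lowest at Day 2, and Dppa3 stays between 5.28 and 13.0 throughout.

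Dppa2 stood at 100.1 and 109 normalized CPM in the shSC libraries at Day 0, at 51.0 and 59.9 at Day 2 and at 15.2 and 15.4 at Day 4. In shCTSL the values were 106 and 103, then 55.6 and 47.4, then 15.0 and 18.8. The days do not overlap in either line, and the lines overlap on every day. In shSC the log2 fold change was −0.91 by Day 2 (adjusted p = 0.000222, SE 0.14) and −2.77 by Day 4 (adjusted p = 1.26e-07, SE 0.15), and in shCTSL −1.03 (adjusted p = 0.000104, SE 0.14) and −2.63 (adjusted p = 1.83e-07, SE 0.15).

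Its partner Dppa4 started at nearly the same level, with 113 and 113 normalized CPM in shSC, and fell to 47.5 and 54.2 at Day 2 and 10.95 and 11.6 at Day 4. The shCTSL libraries held 107 and 115 at Day 0, 67.6 and 52.1 at Day 2, and 12.8 and 15.3 at Day 4. Here too the days are separate within each line. At Day 4 both shCTSL libraries lie above both shSC libraries, a difference that was not called. The log2 change from Day 0 was −1.15 at Day 2 (adjusted p = 6.5e-05, SE 0.15) and −3.32 at Day 4 (adjusted p = 6.64e-08, SE 0.16) in shSC. It was −0.89 (adjusted p = 0.000376, SE 0.14) and −2.98 (adjusted p = 1.27e-07, SE 0.16) in shCTSL.

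The 2 neighbouring genes did not fall by the same amount. The number of Dppa2 counts per Dppa4 count was 0.886 and 0.965 in the shSC libraries at Day 0, 1.07 and 1.10 at Day 2 and 1.39 and 1.32 at Day 4. In shCTSL it was 0.998 and 0.898, then 0.823 and 0.910, then 1.18 and 1.23. At Day 4 the ratio was above every Day 0 and Day 2 library of both lines, and at Day 2 the lines did not overlap, shSC being higher. These ratios are a description taken within each library, which its depth and scaling do not change, and were not tested.

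Dppa3 had few counts on every day, with 88 to 221 in a library. Its normalized CPM was 11.7 and 10.2 in shSC at Day 0, 7.33 and 7.57 at Day 2 and 8.30 and 8.25 at Day 4. In shCTSL it was 9.92 and 9.27, then 13.0 and 5.28, then 6.82 and 10.4. The shSC libraries were lower on both later days than at Day 0, while the 2 shCTSL Day 2 libraries were the highest and the lowest of all 12. In shSC the log2 change by Day 4 was −0.40 (95% interval −1.18 to 0.38, adjusted p = 0.325), an interval that holds a 2-fold fall. With the compared shSC libraries fitted alone, its adjusted p passed 0.05 at Day 2 (−0.48, adjusted p = 0.00143) and at Day 4 (−0.37, adjusted p = 0.0400), and the changes stayed under 1.5-fold. In shCTSL it was −0.16 (−0.95 to 0.63, adjusted p = 0.707). Without shCTSL Day 2 replicate 1 its change from Day 0 to Day 2 became a call (−0.82, adjusted p = 0.00355), with a rise by Day 4 (0.69, adjusted p = 0.017), and without replicate 2 the change from Day 2 to Day 4 was a call in the other direction (−0.60, adjusted p = 0.0152).

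Both chromosomal neighbours of Dppa3 named above fell in these libraries. The growth factor gene Gdf3 fell from 183 ± 1.52 to 7.25 ± 0.551 normalized CPM in shSC (mean ± SD, n = 2), a log2 change of −4.65 (SE 0.23), and Nanog from 545 ± 2.31 to 48.5 ± 1.49, a change of −3.49 (SE 0.10). Both were called lower at Day 4 in both lines.

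Utf1 lost the largest share of its transcript by Day 4. It stood at 599 and 651 normalized CPM in shSC at Day 0, 46.3 and 45.8 at Day 2 and 5.79 and 8.04 at Day 4. In shCTSL it had 574 and 444, then 62.6 and 40.2, then 5.90 and 8.11. Both shCTSL libraries were below the shSC ones at Day 0, and the lines overlapped later. The log2 change was −3.76 by Day 2 (adjusted p = 8.22e-07, SE 0.25) and −6.51 by Day 4 (adjusted p = 4.06e-08, SE 0.29) in shSC. The values in shCTSL were −3.31 (adjusted p = 1.6e-06, SE 0.24) and −6.18 (adjusted p = 5.65e-08, SE 0.29).

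Of the RNA-binding genes, Dppa5a fell more slowly than L1td1. Dppa5a had 695 and 619.6 normalized CPM in shSC at Day 0, 251 and 261 at Day 2 and 82.7 and 59.0 at Day 4. In shCTSL it had 652 and 695, then 527 and 230.0, then 87.9 and 105. The Day 2 library with 527 is the replicate 1 that stands apart, and the other shCTSL library at Day 2 lies below both shSC ones. In shSC the log2 change was −1.36 by Day 2 (adjusted p = 0.00326, SE 0.31) and −3.21 by Day 4 (adjusted p = 1.24e-05, SE 0.33). In shCTSL it was −0.83 by Day 2 (adjusted p = 0.036, SE 0.31) and −2.81 by Day 4 (adjusted p = 3e-05, SE 0.33). The shCTSL call at Day 2 needed both Day 0 libraries, since with replicate 1 left out the change was −0.88 (adjusted p = 0.0864) and with replicate 2 left out −0.78 (adjusted p = 0.119). Without shCTSL Day 2 replicate 2 the change was −0.35, under 1.5-fold, and without replicate 1 it was −1.51.

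L1td1 had the highest normalized CPM of the 7 genes at Day 0. Its normalized CPM was 1587 and 1631 in shSC at Day 0, 177 and 175 at Day 2 and 59.1 and 55.0 at Day 4. In shCTSL it was 1433 and 1485, then 145 and 159, then 49.0 and 61.1. The shCTSL libraries were below the shSC ones at Day 0 and Day 2, by less than the test could call, and overlapped them at Day 4. The log2 change in shSC was −3.19 by Day 2 (adjusted p = 3.58e-08, SE 0.13) and −4.82 by Day 4 (adjusted p = 3.6e-09, SE 0.14). In shCTSL the same changes were −3.26 (adjusted p = 3.38e-08, SE 0.13) and −4.73 (adjusted p = 4.76e-09, SE 0.14).

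Tdh fell fastest and was the one member that rose again. It had 533 and 557 normalized CPM in shSC at Day 0, 11.6 and 11.1 at Day 2, and 24.9 and 22.5 at Day 4. The shCTSL libraries held 544 and 512, then 16.5 and 10.8, then 25.9 and 28.7. In both lines the Day 4 libraries lie above the Day 2 libraries and far below those of Day 0. The log2 change by Day 2 was −5.58 in shSC (adjusted p = 2.02e-08, SE 0.20) and −5.28 in shCTSL (adjusted p = 2.64e-08, SE 0.19). From Day 2 to Day 4 it rose by 1.06 in shSC (adjusted p = 0.00116, SE 0.17) and by 1.003 in shCTSL (adjusted p = 0.00177, SE 0.17). The latter call was lost when only the 4 libraries compared were fitted (0.98, adjusted p = 0.0979).

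The share of the Day 0 level left at Day 2 set the genes apart. In shSC it was 2.08% ± 0.0605 for Tdh, 7.37% ± 0.0627 for Utf1, 10.9% ± 0.106 for L1td1, 39.0% ± 1.06 for Dppa5a, 45.1% ± 4.15 for Dppa4, 53.1% ± 6.02 for Dppa2 and 68.1% ± 1.53 for Dppa3 (mean ± SD of 2 libraries against the Day 0 mean). No Day 2 libraries of neighbours in this order overlap, although the step from Dppa4 to Dppa2 is smaller than their SDs added together. The Day 0 mean is taken as fixed, so the SDs of these shares leave out the spread at Day 0. In shSC the Day 0 libraries held 695 and 619.6 normalized CPM of Dppa5a and 11.7 and 10.2 of Dppa3. Nearby places in the order are thus less certain than the SDs show. The order in shCTSL began with the same 3 genes, at 2.59% ± 0.762, 10.1% ± 3.11 and 10.4% ± 0.675, of which Utf1 and L1td1 did not differ beyond their spread. The shares of Dppa2, Dppa4 and Dppa5a followed at 49.2% ± 5.54, 54.0% ± 9.91 and 56.3% ± 31.2, within their spread. By Day 4 Utf1 had 1.11% ± 0.255 left in shSC, L1td1 3.55% ± 0.177, Tdh 4.34% ± 0.318, Dppa4 10.02% ± 0.433, Dppa5a 10.8% ± 2.55, Dppa2 14.7% ± 0.101 and Dppa3 75.6% ± 0.359. In shCTSL Utf1 was also lowest at Day 4, with 1.38% ± 0.308, and Dppa3 highest, with 89.6% ± 26.2.

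**Figure D2:**
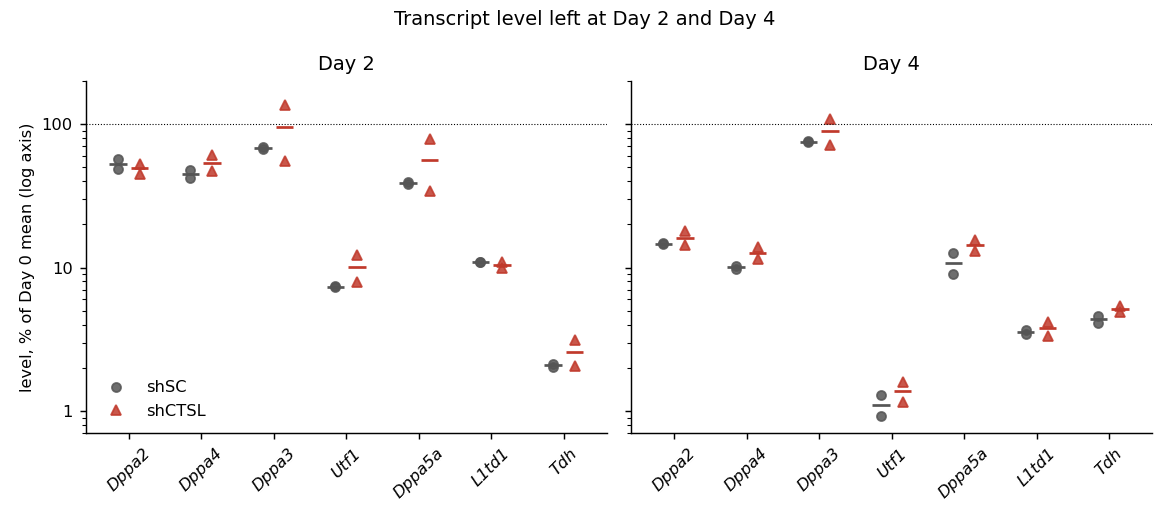
Level at Day 2 and Day 4 as a percent of the mean Day 0 level of the same line, on a log axis. Points are libraries and bars their means, with shSC as circles and shCTSL as triangles. Tdh is lowest at Day 2, near 2%, and Utf1 at Day 4, near 1%, while the shCTSL libraries of Dppa3 and Dppa5a are widely spread at Day 2.

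Levels of different genes were compared per kb of exon in GENCODE M1, with all exons of a gene joined. For Tdh this gives 2615 bp, beside 1881 bp in its longest protein-coding transcript. The SDs do not cover the choice of length, so the order of genes close together is uncertain. In shSC at Day 0 the order was Dppa5a at 1062 ± 86.5 normalized CPM per kb, Utf1 at 509 ± 29.9, L1td1 at 507 ± 9.74, Tdh at 208 ± 6.60, Dppa4 at 73.6 ± 0.104, Dppa2 at 53.6 ± 3.15 and Dppa3 at 12.3 ± 1.25. Only Utf1 and L1td1 did not differ beyond their spread there. At Day 4 Dppa5a was still highest, at 114 ± 27.1, followed by L1td1 at 18.0 ± 0.896. The other 5 lay close together, with Dppa3 at 9.28 ± 0.0440, Tdh at 9.06 ± 0.664, Dppa2 at 7.86 ± 0.0541, Dppa4 at 7.37 ± 0.318 and Utf1 at 5.63 ± 1.30. Utf1 thus went from the second place to the last, and Dppa3 and Tdh did not differ beyond their spread at Day 4. The same 2 genes led in shCTSL at Day 4, with 155 ± 19.1 for Dppa5a and 17.3 ± 2.70 for L1td1.

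Between the lines no member was called on any day. At Day 0, 0 of 7 passed edgeR's test, where 0.0386% of all genes did, and the log2 differences, shCTSL minus shSC, ran from −0.29 (Utf1) to 0.03 (Dppa5a). At Day 2 they ran from −0.21 (L1td1) to 0.56 (Dppa5a), with 0 of 7 called against 0.0644% of all genes. At Day 4 the range was −0.05 (L1td1) to 0.44 (Dppa5a), with 0 of 7 called against 0.0129%. These shares rest on the spread of the shCTSL Day 2 libraries, which all comparisons share: with both left out 1.37% of genes were called at Day 0 and 5.89% at Day 4, and still 0 of 7. In that fit Dppa5a (0.44, adjusted p = 0.0138) and Dppa4 (0.33, adjusted p = 0.0459) at Day 4 passed 0.05 but not 1.5-fold. With all 12 libraries none of these tests had an unadjusted p under 0.05, the lowest being 0.0692 for Dppa4 at Day 4, and DESeq2 called 0 of 7 on each day as well. Averaged over the 3 days, 0 of 7 were called and 0.27% of all genes were, with the highest difference in Dppa5a (0.35, 95% interval −0.05 to 0.74) and the lowest in L1td1 (−0.14, −0.29 to 0.01).

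How large a difference the data leave room for depends on the gene. For Dppa2 the 95% interval was −0.30 to 0.31 at Day 0, −0.41 to 0.20 at Day 2 and −0.18 to 0.47 at Day 4, all within 1.5-fold (0.585 on the log2 scale). L1td1 had intervals of −0.40 to 0.12, −0.47 to 0.04 and −0.31 to 0.21, also within it. Dppa4 reached 0.67 at Day 4 (0.32, −0.03 to 0.67) and Tdh 0.65 at Day 2 (0.26, −0.12 to 0.65). Utf1 passed 1.5-fold on each day, with intervals of −0.79 to 0.20, −0.35 to 0.66 and −0.55 to 0.63. Dppa3 passed it at Day 0 (−0.98 to 0.61) and Day 4 (−0.72 to 0.83), and Dppa5a at Day 0 (−0.65 to 0.71). The intervals of Dppa5a at Day 2 (−0.12 to 1.24) and at Day 4 (−0.25 to 1.13) and of Dppa3 at Day 2 (−0.49 to 1.04) include differences of 2-fold. For these genes a difference was not detectable at this spread.

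Both shCTSL libraries lay beyond both shSC libraries in 3 of 7 genes at Day 0 (Dppa3, Utf1 and L1td1, lower in shCTSL), in 1 of 7 at Day 2 (L1td1, lower) and in 3 of 7 at Day 4 (Dppa4, Dppa5a and Tdh, higher). Over all genes tested the libraries did not overlap in 51.3%, 45.5% and 61.5%. With only 7 genes, the members' counts beside these shares are a description and were not tested.

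**Figure D3:**
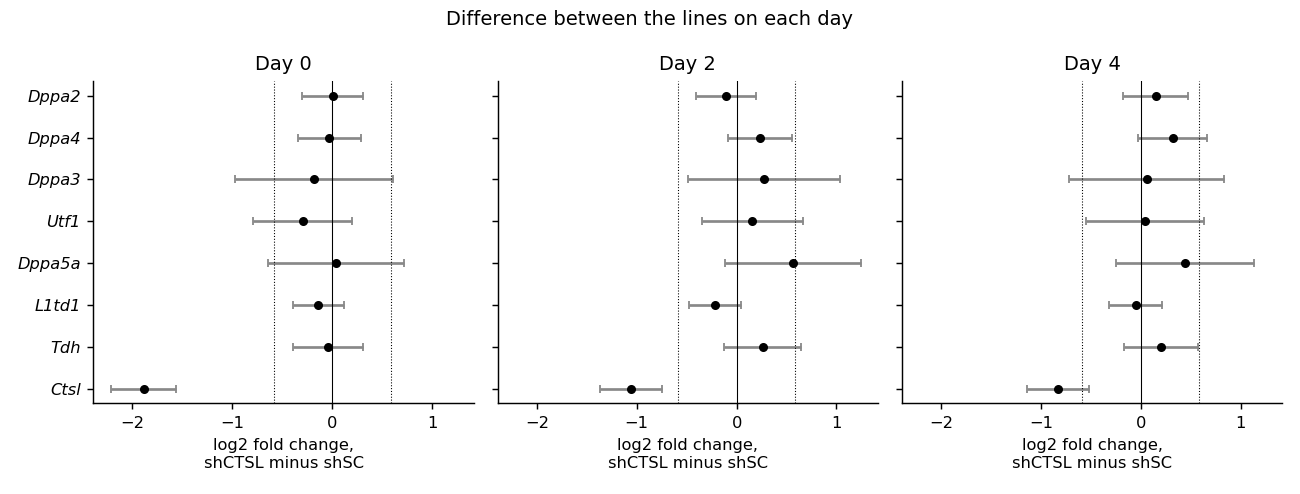
Log2 fold change, shCTSL minus shSC, of the 7 genes and of Ctsl on each day. Points are estimates from 2 libraries a group and bars their 95% intervals, and dotted lines mark 1.5-fold in each direction. Every interval of the 7 genes includes 0, while those of Ctsl lie below it.

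No difference between the lines in the course of a member was called by edgeR's test. For the difference between the lines in the change from Day 0 to Day 2, 0 of 7 were called (0.0% of all genes), with values from −0.11 in Dppa2 to 0.53 in Dppa5a. For Day 2 to Day 4, 0 of 7 were called (0.0%), and for Day 0 to Day 4, 0 of 7 (0.00644%), where the values ran from 0.09 in L1td1 to 0.41 in Dppa5a. Over all genes, 1716, 753 and 1042 had an unadjusted p under 0.05 in these 3 comparisons, and DESeq2 called 24, 11 and 28. The Day 2 values turn on 1 library. Without shCTSL Day 2 replicate 2, leaving the replicate that stands apart, the fall to Day 2 was called as smaller in shCTSL for Dppa5a (1.01), Dppa3 (0.99), Utf1 (0.74) and Tdh (0.59), where 26.0% of all genes were called. Dppa5a (1.04) and Dppa3 (0.80) were then also called higher in shCTSL at Day 2, as were 31.6% of all genes in either direction, and both were called in the change from Day 2 to Day 4 (−0.61 and −0.75), against 14.7%. At Day 2 the share of members, 2 of 7, is near that of all genes. Without replicate 1, 0 of 7 were called in any of these comparisons, and the Day 2 differences of Dppa5a and Dppa3 were −0.15 and −0.49.

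Copies of the members in the genome bear on Dppa5a in particular. At 90% identity or more over at least 50% of the transcript, mm9 holds 7 copies of Dppa5a, 4 of Dppa2, 2 each of Dppa4 and Dppa3, 1 of Tdh and none of Utf1 or L1td1. The authors kept only alignments above a minimum mapping quality, which removes reads that match a copy equally well. Among the genes annotated at these copies, Gm6083, Pigp and Cacna1d are in the count table. Pigp overlaps a copy 93.6% identical to Dppa5a, and Cacna1d overlaps a copy 90.8% identical to Dppa3. In shCTSL at Day 2 Pigp had 46.9 normalized CPM in replicate 1 and 26.4 in replicate 2. Gm6083 (chr5:29864693-29865049) is a pseudogene 96.0% identical to Dppa5a. Its normalized CPM was 43.1 and 34.3 in shSC at Day 0, 18.7 and 23.3 at Day 2 and 4.81 and 4.23 at Day 4. In shCTSL it was 45.6 and 47.1, then 41.6 and 18.2, then 5.95 and 7.23, with the same library high at Day 2 as for Dppa5a. How many of these reads come from Dppa5a was not tested, and the values of both are uncertain to that extent.

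The genes whose pattern over the 12 libraries was most like that of each member were found by the root mean square difference of centred log2 CPM. For L1td1 these were the pluripotency factor genes Zfp42 (0.12) and, behind Atp2a3 (0.16), Esrrb (0.25). For Dppa2 they were Itpk1 (0.16), Upp1 (0.20) and Sptbn4 (0.22), with Dppa4 at 0.23. For Dppa4 they were Arhgap9 (0.20), Chga (0.22) and Slc12a8 (0.24). Dppa5a was closest to Gm6083 (0.18), the copy described above, then to Pir (0.23) and Acot7 (0.24), and Dppa4 stood at 0.25. Dppa3 was closest to Ss18l2 (0.12), Pstk (0.16) and Wdr83os (0.17). Utf1 and Tdh had no near match, with Cobl at 0.43, 1700097N02Rik at 0.45 and Gm7325 at 0.48 for Utf1 and Enox1 at 0.44, Lrrc2 at 0.45 and 1700057H21Rik at 0.48 for Tdh. Enox1 had 191 normalized CPM in shSC at Day 0, 6.50 at Day 2 and 8.43 at Day 4.

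Among the 7, 5 genes (the Dppa genes and Utf1) were among the candidates first screened for reprogramming, and the other 19 candidates, all tested, behaved as a mixed group. In shSC 15 were called lower at Day 4 and 1 higher, where 28.7% of all genes were lower and 32.1% higher, with a median log2 change of −3.46. Tcl1, a cofactor of Akt, fell from 101 ± 7.78 to 1.43 ± 0.141 normalized CPM (−6.16, SE 0.25) and Zfp42 from 948 ± 34.0 to 32.3 ± 0.406 (−4.87, SE 0.14), while Ctnnb1, which encodes beta-catenin, rose from 1152 ± 31.1 to 2008 ± 8.03 (0.80, SE 0.09). All 7 pluripotency factors were called lower, with a median of −4.24 and Pou5f1 at −4.49 (SE 0.23). The lists overlap, since Pou5f1, Nanog, Sox2, Zfp42 and Klf4 are also among the candidates. So are Khdc3, Gdf3 and Dnmt3l, which are named with other lists. All 3 genes listed with L1td1 fell, with Lin28a, an RNA-binding partner, at −3.17 (SE 0.11) and Trim71 at −2.53 (SE 0.52). Of 5 genes of the Dppa5a family in the table only Khdc3 and Ooep were tested, and both fell, with log2 changes of −4.07 (SE 0.22) and −4.01 (SE 0.30).

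Most genes of the metabolic pathways of Tdh fell as well. Of 16 genes for the use of threonine, glycine, serine and one-carbon units, 13 were called lower in shSC by Day 2 and 15 by Day 4. Over all genes 25.3% and 28.7% were called lower, and the median log2 change of the 16 genes was −1.46 at Day 4. The largest falls were those of Gldc, the glycine-cleaving subunit of the glycine cleavage system, from 288 ± 11.2 to 30.1 ± 2.49 normalized CPM (−3.26, SE 0.18), and of Mthfd2, a mitochondrial folate enzyme, from 227 ± 11.8 to 28.9 ± 3.30 (−2.97, SE 0.13). From Day 2 to Day 4, when Tdh rose, 5 of the 16 were called lower and 0 higher in shSC by edgeR, and DESeq2 also called 5 and 0. Over all genes edgeR called 12.4% lower and 11.4% higher in that comparison. In shCTSL the counts called lower were 13 by Day 2 and 16 by Day 4, against 24.6% and 27.6% of all genes.

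Of 8 DNA methylation factors, listed for Dppa3, 6 were called lower in shSC at Day 4, where 28.7% of all genes were. The other 2 were called higher, beside 32.1% of all genes. Dnmt3l, a cofactor of the de novo methyltransferases, had a log2 change of −4.48 (SE 0.21) and Tet1, a 5-methylcytosine oxidase, of −3.94 (SE 0.29), while Tet3 rose by 3.05 (SE 0.32) and the methyltransferase gene Dnmt3a by 0.70 (SE 0.12).

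Genes of the 2-cell embryo, which Dppa2 and Dppa4 are known to act upstream of, rose while both fell. Of 16 listed, 13 are in the table and were tested, and 13 of 13 were called higher in shSC by Day 2 and 12 of 13 by Day 4, with 13 of 13 on both days in shCTSL. Over all genes the shares called higher were 29.3% and 32.1% in shSC and 30.9% and 32.3% in shCTSL. Their summed level was 0.671 to 1.24 normalized CPM in the 4 Day 0 libraries, 49.4 to 85.8 at Day 2 and 52.6 to 93.9 at Day 4. At such Day 0 levels they could pass the filter on low counts mainly through the later days. A call of higher was thus largely fixed in advance for these genes, and their counts beside all genes are a description only. At Day 0, 2 of them were at 0 in both shSC libraries and 5 in both shCTSL libraries. With those genes set at the bound that 3 counts per library allows, the median log2 change in shSC was 4.75 by Day 2 and 4.22 by Day 4. Zscan4b, a zinc finger gene of that stage, was at 0 at Day 0 and at 2.94 ± 0.0341 normalized CPM in shSC at Day 4, at least 14.2-fold higher. Usp17ld, a deubiquitinase gene, was likewise at 0 and then at 0.845 ± 0.117, at least 4.08-fold higher. The Zscan4 and Usp17l genes are near-identical copies of each other, so their counts are uncertain gene by gene.

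**Figure D4:**
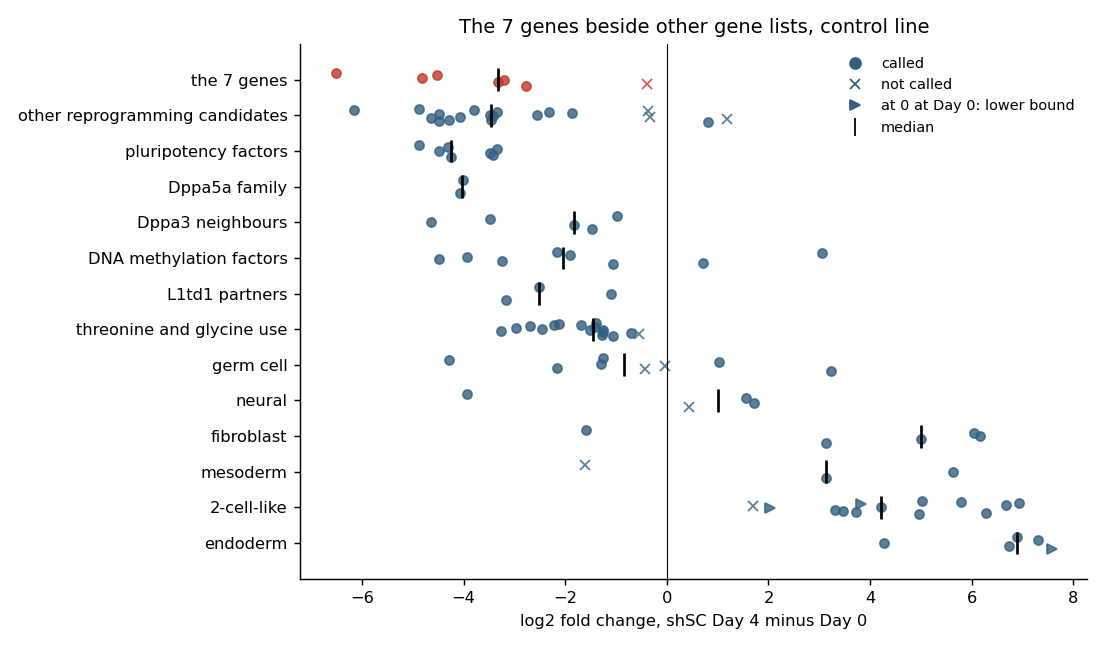
Log2 fold change in shSC, Day 4 minus Day 0, of the 7 genes (top row) and of the other lists. Each point is a gene, filled where called and a cross where not, arrowheads are lower bounds for genes at 0 at Day 0, and bars are medians. The 6 called genes of the 7 lie from −6.51 to −2.77. The pluripotency factors lie from −4.87 (Zfp42) to −3.34 (Sox2), and the lowest of the other reprogramming candidates is Tcl1 at −6.16. Dppa2, Dppa4 and Dppa5a fell less than each pluripotency factor, and Utf1 fell more than any gene of both lists. The 2-cell-like and endoderm genes lie on the other side of 0.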

How the data were processed

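RNA-seq was made from poly(A) RNA with directional libraries in 12 samples (6 groups of 2). Per the labels and the study's methods, the authors checked reads with FastQC 0.11.2, used STAR 2.3.0e for alignment to mm9, discarded low mapping quality and reads on the mitochondrial genome or unplaced contigs with SAMtools 0.1.19, and deposited unnormalized whole-number counts per RefSeq gene from featureCounts 1.6.2. For strand, the counting option was not given in the sources used here. No count row lacked a gene name.

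Counts were fitted in R 4.3.3 with edgeR 4.0.16 (glmQLFit, glmQLFTest), with TMM normalization, filterByExpr at a minimum count of 10, all 12 libraries and 1 mean per group, leaving 6 residual degrees of freedom. Adjustment was by Benjamini-Hochberg over 15532 genes, and a call needed an adjusted p under 0.05 and at least 1.5-fold. For normalized CPM, each count was divided by its library total times the TMM factor and scaled to a common size. The SE comes from the fit, and 95% intervals use its degrees of freedom. Intervals and p-values rest on a spread between biological replicates that was estimated over all 6 groups together and moderated across genes. They do not measure the spread of the compared groups alone, and the shCTSL Day 2 pair enters every comparison. Library totals of 11171111 to 27155553 put every member at 88 counts or more. Patterns were compared on log2 CPM with a prior count of 0.5, over 12 libraries.

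The members and gene lists were chosen with earlier results of these data known. Named besides the 7 members are, of each list, at most the 2 highest and 2 lowest log2 changes of shSC Day 4 against Day 0 among called genes, and for each member the 3 genes most like it. Marker lists summed whole are spelled out or counted. Same-numbered replicates were checked for shared deviations from the group means, and the correlations ran from −0.299 to 0.104, so the numbers do not pair the samples. Positions and exonic lengths come from GENCODE M1 (mm9), copies from blastn 2.17.0 against mm9, and promoters from RefSeq (GRCm38.p6). Alternatives were RLE normalization, DESeq2 1.42.0, no filter (22689 genes), at least 1 CPM in 2 libraries (14655), the compared libraries fitted alone, calls on adjusted p alone, calls at a log2 change of 1.5 or more, the replicate number as a block, limma-voom (limma 3.58.1) with quality weights, each library left out, and, chosen after seeing the data, both shCTSL Day 2 libraries left out. The test was checked on simulated data. Figures were drawn with matplotlib 3.10.9.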

Additional observations from a re-analysis of the deposited data

How the results depend on the processing

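Of the 7 genes, 6 were called in each comparison of days and 0 in each comparison of the lines, and RLE normalization, DESeq2, both other filters, calls on adjusted p alone, limma-voom, leaving out both shCTSL Day 2 libraries (in comparisons without that group) and the replicate block (6 and 0) gave these counts as well. Fitting the compared libraries alone gave 5 for shCTSL from Day 0 to Day 2 and 4 from Day 2 to Day 4. It lost Dppa5a in both (−0.82, adjusted p = 0.146, and −1.99, adjusted p = 0.0546) and Tdh in the second (0.98, adjusted p = 0.0979). With calls at a log2 change of 1.5 or more, 3 were called from Day 0 to Day 2 in each line, and 5 in shSC and 4 in shCTSL from Day 2 to Day 4. With libraries left out in turn, shCTSL had 5 to 7 called from Day 0 to Day 2 and 6 to 7 from Day 2 to Day 4. Those called ran from 0 to 2 for shCTSL against shSC at Day 2, from 0 to 4 for the difference between the lines in the change from Day 0 to Day 2, and from 0 to 2 for that from Day 2 to Day 4, each highest without shCTSL Day 2 replicate 2. Over all genes, the calls between the lines ran across all alternatives from 0 to 269 at Day 0, 0 to 5012 at Day 2 and 0 to 926 at Day 4, beside 6, 10 and 2 in the fit reported.

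No member called with all 12 libraries changed sign, while Dppa3 from Day 2 to Day 4 in shCTSL was called in opposite directions without replicate 1 and without replicate 2 of shCTSL Day 2. Dppa2 between the lines at Day 0 was −0.016 without the filter, and Dppa3 from Day 2 to Day 4 in shCTSL was 0.12 with limma-voom. Across left-out libraries, the log2 difference between the lines at Day 0 ran from −0.059 to 0.073 for Dppa2, −0.085 to 0.022 for Dppa4 and −0.040 to 0.11 for Dppa5a. At Day 2 it ran from −0.22 to 0.011 for Dppa2, −0.49 to 0.80 for Dppa3, −0.19 to 0.44 for Utf1, −0.15 to 1.04 for Dppa5a and −0.059 to 0.54 for Tdh. At Day 4 it ran from −0.027 to 0.29 for Dppa2, −0.28 to 0.32 for Dppa3, −0.22 to 0.27 for Utf1 and −0.22 to 0.092 for L1td1. The difference between the lines in the change to Day 2 ran from −0.23 to 0.0093 for Dppa2, −0.32 to 0.99 for Dppa3, −0.19 to 1.01 for Dppa5a and −0.023 to 0.59 for Tdh. Dppa3 in shCTSL ran from −0.82 to 0.44 by Day 2, −0.60 to 0.69 from Day 2 to Day 4 and −0.49 to 0.11 by Day 4. The causes were not tested. With TMM the median of all genes in Day 2 or Day 4 against Day 0 was 0.02 to 0.08. Scaling by library size alone moved it to 0.35 to 0.43. A call needs at least 1.5-fold, which is already more than that shift. The size of the called falls is therefore no check on the scaling. Whether the calls hold with scaling by library size alone was not tested. With 2 libraries a group, differences under 2-fold in Dppa3 and Dppa5a are near the limit of what these data show.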

Other observations

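Germ cell genes, with which the 7 genes share part of their expression in the embryo, were called in both directions in shSC from Day 0 to Day 4. Of 8 tested, 4 were called lower and 2 higher, beside 28.7% and 32.1% of all genes. Prdm14, a repressor needed for germ cell specification, went down from 30.1 ± 1.40 normalized CPM at Day 0 to 1.54 ± 0.0149 at Day 4 (mean and SD of 2 libraries, log2 change −4.29, SE 0.21), and Dnd1, an RNA-binding gene, from 24.5 ± 1.54 to 5.52 ± 1.12 (−2.16, SE 0.19). Dazl, a germ cell RNA-binding gene, rose from 4.12 ± 0.654 to 39.0 ± 0.337 (3.23, SE 0.21), and Prdm1, which encodes Blimp1, from 21.7 ± 1.92 to 44.5 ± 5.84 (1.03, SE 0.23). In shCTSL the changes of Dazl and Prdm1 were 2.75 (SE 0.21) and 1.93 (SE 0.25).

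Of the lineage markers, all 5 endoderm genes were called higher in shSC at Day 4, where 32.1% of all genes were higher and 28.7% lower. Gata6, an endoderm transcription factor gene, went from 0.998 ± 0.0975 to 157 ± 21.5 normalized CPM (7.30, SE 0.23), and Afp from 0 to 39.5 ± 8.72, at least 191-fold higher against 3 counts per library. Of 3 mesoderm genes tested, Kdr (5.64, SE 0.35) and Hand1 (3.13, SE 0.36) were called higher. Of 5 fibroblast genes, 4 were called higher, led by Pdgfra (6.17, SE 0.31) and Postn (6.04, SE 0.42), and Thy1 fell (−1.60, SE 0.25). The endoderm, mesoderm and fibroblast genes were low at Day 0, with Afp at 0 in both shSC libraries. Some of them could pass the filter on low counts mainly through the later days. A call of higher was to that extent fixed in advance, and these counts beside all genes are a description only. Of 4 neural genes, Pax6 (1.71, SE 0.19) and Sox1 (1.56, SE 0.14) were called higher and Tubb3, a neuronal tubulin gene, lower, from 169 ± 9.58 to 11.1 ± 2.64 normalized CPM (−3.94, SE 0.20).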
